A study of Drosophila melanogaster with 18 samples.

Results

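CDX males of *Drosophila melanogaster* were set against Control males, using 12 of the 18 arrays of the series: 6 arrays of CDX males and 6 of Control males. Each treatment had 3 populations and 2 arrays per population, named here by population and male, so that array 2-1 holds male 1 of population 2. All populations derived from the outbred laboratory stock LHm, and all flies were adult males, 14 days after egg laying and 4 days as adults, taken whole. Arrays were made after 50 generations of the selection experiment, which also held the MLX treatment, in which the X was passed from father to son over those generations.

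The males were built as follows. CDX males were sons of a Control father and a DX female, whose 2 X chromosomes are joined into a single compound that carries the visible mutations yellow and forked. A son of that cross receives the father's X, here one that had not evolved under male-limited transmission, and receives the mother's Y. By the paper, the Y of CDX males derived from the MLX populations and so could have evolved there. Control males had the usual inheritance, with the X from the mother and the Y from the father. The CDX and Control males therefore differed at least in which parent gave the X, in the source and history of the Y and in the kind of mother. A DX mother also gave autosomes to her sons, and where she came from an MLX population these shared its history. In these data none of these can be told apart. The labels give 1 male per array whereas the study's methods give 8, and p-values here measure the spread between these populations and arrays.

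In flies a male has a single X and a Y, and sex is set by the number of X chromosomes, not by the Y. The dosage compensation complex (the msl proteins, mle and mof) binds the male X and raises its transcription to balance the autosomes. The Y holds few protein-coding genes, most of them needed for sperm, but its heterochromatin can alter the expression of genes elsewhere. A chromosome that carries a mark of the parent it came from is called imprinted, and the comparison of CDX with Control males asked whether an X inherited from the father is expressed differently from one inherited from the mother.

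The deposited values are log2 expression levels after robust multi-array averaging (RMA), a method that corrects the background, puts all arrays on 1 distribution and summarises the probes of each probe set. Medians of the 12 arrays lay between 6.97 and 7.05, and 18769 probe sets were tested, of which 13647 carried a single gene (11982 genes). Male tissues gave high signal in both treatments. Acp36DE, a seminal fluid protein of the accessory gland, had a lowest, median and highest array value of 13.74, 14.20 and 14.25 in CDX males and 14.06, 14.13 and 14.25 in Control males. Mst84Db, a sperm tail protein, ran from 13.39 to 13.54 in CDX males and from 13.34 to 13.46 in Control males.

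Transcripts that male flies should lack also gave signal in some arrays. Yolk proteins and eggshell proteins are made by the fat body and ovary of females. The mean log2 level of 20 such genes was 6.71, 5.72, 6.82, 5.33, 6.30 and 5.59 in CDX arrays 1-1, 1-2, 2-1, 2-2, 3-1 and 3-2, and 5.37, 5.33, 6.45, 5.31, 5.31 and 5.40 in the same order of Control arrays. The first array of every CDX population was thus high, as was 1 Control array, while the other 5 Control arrays lay close together. The difference between the treatments was 0.55, with an exact permutation p of 0.1 over the 6 population means, the smallest that 3 populations against 3 can give. The exact permutation p over the 12 arrays was 0.0823 (both two-sided). A p over arrays, here and below, takes the 2 arrays of a population as independent although they are nested in it. Where this signal moves with a result, the value without the 6 arrays of the series with the highest yolk and eggshell mean is given beside it (CDX 1-1, 2-1 and 3-1, Control 2-1, and 2 MLX arrays), or the value with that mean as a covariate. The 3' minus 5' difference of the control transcripts on the array, a sign of RNA integrity, was 2.14 ± 0.10 in CDX males and 2.19 ± 0.10 in Control males (SD, n = 6 arrays each, exact permutation p = 0.6 over populations).

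**Figure D1:**
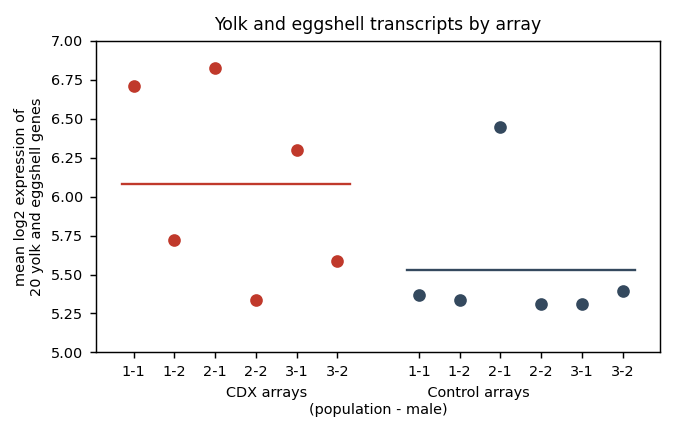
Mean log2 expression of 20 yolk and eggshell genes (vertical axis, from 5) in each CDX array and each Control array (horizontal axis, population and male), with the treatment mean as a line. CDX arrays 1-1, 2-1 and 3-1 and Control array 2-1 lie between 6.30 and 6.82, and the other arrays at or below 5.72.

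No transcript differed between CDX and Control males after correction for multiple tests. The number of probe sets at an adjusted p under 0.05 was 0 of 18769 (limma, populations as a random block, Benjamini-Hochberg, 0% called), and the smallest adjusted p was 0.999835. At an unadjusted p under 0.05 there were 560 probe sets (2.98%), 281 higher (1.5%) and 279 lower (1.49%) in CDX males, where an even distribution of p would give 938. At an unadjusted p under 0.01 there were 78 (0.416%), 42 of them higher in CDX males and 36 lower, against 188 under an even distribution. The 3 CDX population means lay wholly above or wholly below the 3 Control means for 1548 probe sets (8.25%), 773 higher (4.12%) and 775 lower (4.13%). The mean was higher in CDX males for 9518 probe sets (50.7%).

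**Figure D2:**
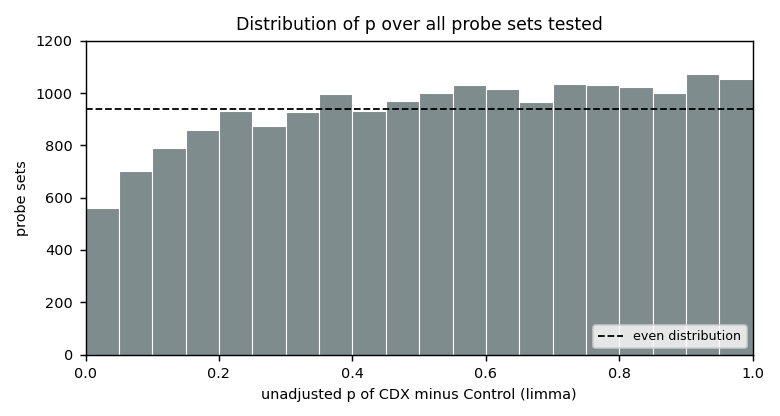
Number of probe sets (vertical axis) in steps of 0.05 of the unadjusted limma p for CDX minus Control (horizontal axis), with the dashed line at the even share. The first bar holds 560 probe sets and lies below the line, and the bars near 1 lie above it.

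Differences between the treatments were small. The central 95% of differences, CDX minus Control, ran from -0.16 to 0.16 on the log2 scale around a median of 0.0011, and the median standard error was 0.074. Only 52 probe sets differed by more than 0.5, with 38 higher in CDX males and 14 lower, and 11 of the 52 belonged to yolk and eggshell genes. Just 3 differed by more than 1. These were CG14499 (1.52, standard error 0.80), the eggshell gene Cp36 (1.45, standard error 0.84) and the yolk gene Yp1 (1.38, standard error 0.86), chosen here after their values were seen, and each had an unadjusted p above 0.05 (limma). A CDX array and a Control array differed by a median of 0.103 per probe set (36 pairs), 2 arrays from different populations of a treatment by 0.105 (24 pairs), and 2 arrays of 1 population by 0.0907 (6 pairs). Males of different treatments were therefore no further apart than 2 males of 1 treatment from different populations.

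The genes described next were picked by an unadjusted p under 0.01 together with population means that did not overlap, up to 15 on each side by size. There were 47 such genes (with 1 probe set per gene, 0.426% of genes had an unadjusted p under 0.01). That share rests on p alone and on the brightest probe set of each gene. The 47 also needed population means that did not overlap, and genes such as be and bol entered through a dimmer probe set. The share is therefore no background for the 47. Of the 47 genes, 27 had a higher mean in CDX males and 20 a lower one. None passed the correction, so each difference is a description of these males.

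The largest difference on the higher side was that of CG34251, a gene on 3L. Its population means were 6.97, 6.87 and 6.38 in CDX males, against 6.22, 5.79 and 5.31 in Control males, and 4 of the 6 CDX arrays lay above every Control array. The difference was 0.97 (standard error 0.24, 95% confidence interval 0.47 to 1.47), a ratio of 1.96. CG13482, also on 3L, had 9.87, 10.72 and 9.92 in CDX populations and 9.08, 9.58 and 9.35 in Control populations, a difference of 0.83 (standard error 0.23). For this gene 5 CDX arrays were above all Control arrays, and without CDX population 2 the difference was 0.56.

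CG4998 and CG13056 are neighbours on 3L. CG4998 stood at 6.34, 6.13 and 6.29 in CDX populations and 5.75, 5.87 and 5.12 in Control populations, a difference of 0.67 (standard error 0.23) that was 0.45 without Control population 3. CG13056 stood at 6.05, 6.11 and 6.23 in CDX populations and 6.00, 5.85 and 5.77 in Control populations, a difference of 0.26 (standard error 0.08). Both genes had 3 CDX arrays above all Control arrays, so the arrays of the treatments overlapped although the population means did not.

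Several of the higher genes encode enzymes. CG3635, a lipase, had population means of 6.44, 6.53 and 6.30 in CDX males and 5.87, 5.89 and 6.07 in Control males, a difference of 0.48 (standard error 0.13). CG15534, of the acid sphingomyelinase family that splits membrane lipids, had 8.41, 8.55 and 8.76 in CDX populations and 8.13, 8.02 and 8.24 in Control populations (difference 0.44, standard error 0.14). Ugt37A3, a UDP-glycosyltransferase that couples sugars to foreign compounds, had 6.55, 6.68 and 6.96 in CDX populations against 6.34, 6.26 and 6.54 in Control populations. The lowest CDX population was barely above the highest Control population. Adgf-D, a secreted adenosine deaminase, had 8.70, 8.91 and 8.64 in CDX populations and 8.42, 8.63 and 8.46 in Control populations, a difference of 0.25 (standard error 0.08).

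CG5921, an X-linked gene related to the scaffold protein harmonin, had the smallest unadjusted p of all probe sets (0.000287, limma). Its population means were 7.68, 7.96 and 7.82 in CDX males and 7.41, 7.44 and 7.54 in Control males, with a difference of 0.36 (standard error 0.08, 95% confidence interval 0.19 to 0.53). Of the 6 CDX arrays, which ran from 7.62 through a median of 7.82 to 7.97, 5 lay above the Control arrays, which ran from 7.38 through 7.45 to 7.62. Whamy, a regulator of actin assembly in muscle precursors, was the only named gene on the higher side whose 6 CDX arrays all exceeded the 6 Control arrays. It ran from 7.08 through 7.10 to 7.47 in CDX arrays, against 6.91, 6.95 and 6.97 in Control arrays, and its difference of 0.25 (standard error 0.09) was 0.15 without CDX population 2. Sox100B, a transcription factor needed in the developing testis, stood at 5.12, 5.43 and 5.29 in CDX populations and 5.04, 4.95 and 4.95 in Control populations (difference 0.30, standard error 0.09).

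The remaining named genes on the higher side were CG9568, CG12824, CG34357 and CG10650. CG9568 had a mean of 11.43 ± 0.29 in CDX males and 10.98 ± 0.17 in Control males (SD, n = 6 arrays each), a difference of 0.45, and without CDX population 2 it was 0.29. CG12824 and CG10650 differed by 0.30 and 0.27, with standard errors of 0.08 and 0.09. CG34357, a membrane guanylate cyclase, was a dim transcript with a difference of 0.28, which was 0.17 without the yolk-high arrays. The other 3 probe sets of CG34357 differed by -0.05, -0.07 and 0.10, so the difference was seen with 1 probe set of 4.

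**Figure D3:**
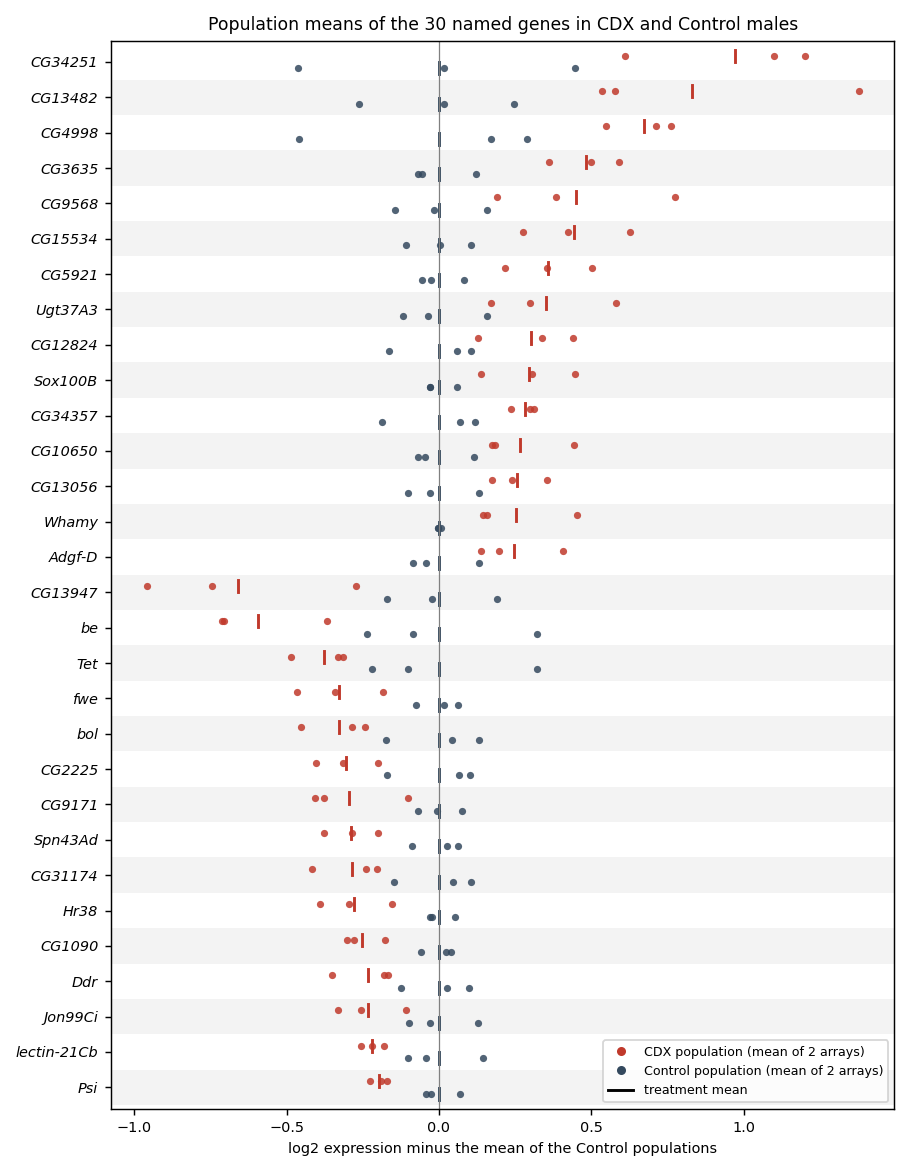
Population means of the 30 named genes, as log2 expression minus the mean of the Control populations (horizontal axis), with CDX populations drawn above Control populations in each row and a bar at each treatment mean. The 3 CDX points of a gene do not overlap its 3 Control points, as the choice of genes required, and the gap ranges from 0.97 for CG34251 to -0.66 for CG13947 between means.

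On the lower side the largest difference was that of CG13947, on 2L, whose probe set is of a kind that can bind related transcripts as well. Its population means were 12.02, 11.33 and 11.55 in CDX males and 12.27, 12.12 and 12.49 in Control males, a difference of -0.66 (standard error 0.16) and a ratio of 0.634. CDX arrays ran from 11.32 through a median of 11.55 to 12.27, and Control arrays from 12.11 through 12.27 to 12.53, so that 5 CDX arrays lay below every Control array. For be, on the X, the population means were 5.18, 5.19 and 5.52 in CDX males and 5.65, 5.81 and 6.21 in Control populations, a difference of -0.59 (standard error 0.20). Its brighter probe set differed by -0.05 (standard error 0.07), with means of 10.10 in CDX males and 10.15 in Control males.

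That contrast between probe sets was found for several lower genes. Tet, the fly relative of the enzymes that oxidise methylated bases, had 5.50, 5.52 and 5.35 in CDX populations and 6.16, 5.62 and 5.73 in Control populations. Its difference of -0.38 (standard error 0.13) was -0.22 without Control population 1, and its other 3 probe sets differed by between -0.02 and 0.02. The RNA-binding protein bol, required for meiosis in the male germline, had 8.09, 8.14 and 7.93 in CDX populations and 8.51, 8.21 and 8.42 in Control populations with 1 probe set (difference -0.33, standard error 0.11). Its brightest probe set, at 11.20 in CDX males and 11.19 in Control males, differed by 0.0099. For fwe, a membrane protein that marks losing cells in cell competition, the difference of -0.33 (standard error 0.10) stood beside -0.05 and 0.01 with the other two probe sets. CG2225 differed by -0.31 with 1 probe set and by 0.06 with the other, and Ddr, a collagen receptor kinase, by -0.23 with 1 and by between -0.07 and 0.14 with 4 others.

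Hr38, a nuclear receptor whose transcript follows neuronal activity, was lower with both its probe sets. The brighter gave 6.39, 6.29 and 6.53 in CDX populations and 6.65, 6.73 and 6.66 in Control populations, a difference of -0.28 (standard error 0.10), and the dimmer a difference of -0.19 (standard error 0.08, unadjusted p = 0.0282 from limma). Psi, a splicing regulator known from the control of P element transposition, had 7.94, 7.89 and 7.92 in CDX populations and 8.07, 8.09 and 8.18 in Control populations. Its difference of -0.20 (standard error 0.06) was among the smallest of the named genes, and its 3 CDX populations lay close together. The C-type lectin gene lectin-21Cb had 7.56, 7.60 and 7.64 in CDX populations and 7.72, 7.78 and 7.96 in Control populations.

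Among the others were the serpin Spn43Ad, an inhibitor of serine proteases, with a difference of -0.29 (standard error 0.09) that was -0.18 without the yolk-high arrays. The gut protease Jon99Ci had 12.98, 13.06 and 13.21 in CDX populations and 13.28, 13.44 and 13.21 in Control populations, where the third populations were nearly level. Its difference was -0.23 (standard error 0.08), and -0.15 without the yolk-high arrays. CG1090, of the sodium and calcium exchanger family, had 5.01, 5.11 and 4.99 in CDX populations and 5.31, 5.23 and 5.33 in Control populations. CG9171 and CG31174 differed by -0.30 and -0.29, with standard errors of 0.08 and 0.09. Over the alternative fits, the 30 named genes kept the sign of their difference in all of them. The genes were chosen for population means that did not overlap, so leaving out a population could not turn the sign. The kept sign is therefore no support for these differences. The smallest adjusted p of any was 0.297, for CG13947 (limma).

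X-linked transcripts as a whole did not differ beyond the spread between populations. The median over 2188 X-linked probe sets, minus the median over 11270 autosomal ones on the same array, was -0.31, -0.33 and -0.30 in CDX populations and -0.31, -0.32 and -0.33 in Control populations. The difference was 0.0076, with a two-sided exact permutation p of 0.4 over the 6 population means (0.467 after Benjamini-Hochberg adjustment over 7 chromosome arms). The mean was higher in CDX males for 1176 X-linked probe sets (53.7%) and for 5899 autosomal ones (52.3%), and the median difference was 0.0057 on the X and 0.0041 on the autosomes. The sign of the X minus autosome difference was not stable, since it was -0.0017 among the brighter probe sets and -0.0021 with 1 probe set per gene.

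Single X-linked transcripts were no more often apart than the background. On the X, 27 probe sets had a higher mean at an unadjusted p under 0.05 and 23 a lower one, which is 2.29% against 2.98% of all probe sets. The population means did not overlap for 86 X-linked probe sets with a higher mean in CDX males and 95 with a lower one (8.27%, against 8.25% of all). At an unadjusted p under 0.01 the X held CG5921, CG14219, CG11095, CG14629 and Dsor1 on the higher side and be and CG11158 on the lower side. CG14219 had 5.66, 6.45 and 6.24 in CDX populations and 5.25, 5.21 and 5.78 in Control populations, where CDX population 1 lay below Control population 3. Dsor1, the kinase that activates MAP kinase, stood at 7.93, 7.94 and 7.92 in CDX populations and 7.76, 7.86 and 7.80 in Control populations, a difference of 0.12 (standard error 0.04). CG11158 had 7.84, 7.69 and 7.90 in CDX populations and 8.01, 7.92 and 8.07 in Control populations.

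The large autosomal arms showed differences of like size to that of the X. Relative to the autosomal median they were -0.0087 for 2L, 0.0080 for 2R, -0.0047 for 3L and -0.0025 for 3R, with exact permutation p values between 0.3 and 0.7 over populations. Shares of probe sets with a higher mean in CDX males ran from 50.2% on 3L to 53.1% on 2L and 2R.

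Chromosome 4, a small autosome rich in heterochromatin, had the most uneven split of the arms with more than 9 probe sets. Of its 82 probe sets, 21 had a higher mean in CDX males and 61 a lower one, and the median difference was -0.056. The level of chromosome 4 relative to the autosomes was 0.078, 0.082 and 0.16 in CDX populations and 0.084, 0.20 and 0.22 in Control populations, a difference of -0.060 with an exact permutation p of 0.2 over populations and 0.139 over arrays. Without Control population 1 it was -0.10, and without Control population 3 it was -0.037. Control population 1 lay among the CDX populations, so the treatments overlapped. The population means of single probe sets did not overlap for 1 with a higher mean and 12 with a lower one (15.9%, against 8.25% of all probe sets), and 5 of the 82 had an unadjusted p under 0.05 (6.1%, against 2.98%). With the yolk and eggshell mean as a covariate the median difference was -0.058.

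Of the chromosome 4 genes, chosen after their values were seen, toy, a Pax6 gene of eye development, had 7.88, 7.69 and 7.78 in CDX populations and 7.86, 7.97 and 7.99 in Control populations (difference -0.16, standard error 0.06). The TGF-beta ligand mav had 9.93, 9.82 and 9.91 in CDX populations and 9.94, 10.07 and 10.07 in Control populations, a difference of -0.14 (standard error 0.06). RhoGAP102A and Dyrk3 also had lower means, by -0.16 and -0.14. Rnf11 ran the other way, with 8.12, 8.03 and 8.15 in CDX populations against 7.79, 7.94 and 7.91 in Control populations. The transcript of Pof, which encodes a protein that binds chromosome 4 and tunes its expression, stood at 12.21 ± 0.11 in CDX males and 12.21 ± 0.11 in Control males (SD, n = 6 arrays each), with a difference of 0.0003.

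**Figure D4:**
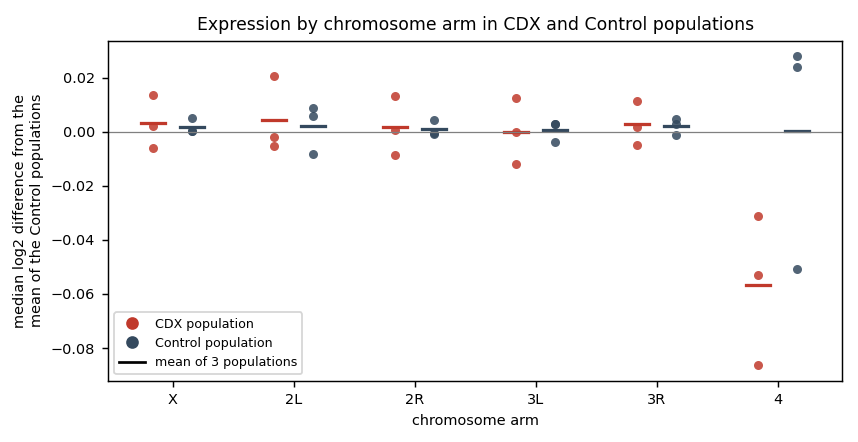
Median over the probe sets of each chromosome arm (horizontal axis) of the log2 difference from the mean of the Control populations (vertical axis), for each CDX population, drawn at the left of each pair, and each Control population, with bars at the mean of 3 populations. The populations lie within about 0.02 of 0 on X, 2L, 2R, 3L and 3R, and on chromosome 4 the CDX populations lie between -0.086 and -0.031 with 1 Control population, at -0.051, among them.

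Because CDX males had received a Y from a DX mother, the Y-linked genes were examined singly. They were kl-2, kl-3 and kl-5, dynein heavy chains of the sperm tail, ORY, Ppr-Y, Pp1-Y2 and ARY, measured by 9 probe sets in all. None had an unadjusted p under 0.05. The smallest p was that of kl-3 (0.0965, limma), at 3.88, 3.81 and 3.71 in CDX populations and 3.57, 3.81 and 3.63 in Control populations, both close to the lowest signal on the arrays. ORY had 5.59, 5.54 and 5.57 in CDX populations and 5.55, 5.85 and 5.79 in Control populations. Its difference was -0.16 with a 95% confidence interval of -0.48 to 0.15. The protein phosphatase Pp1-Y2 had means of 7.71 ± 0.09 in CDX males and 7.70 ± 0.11 in Control males (SD, n = 6 arrays each), and the aldehyde reductase ARY stood at 7.05, 6.96 and 6.92 in CDX populations and 6.94, 7.07 and 6.99 in Control populations. Of the 9 probe sets, 1 of kl-2 had population means that did not overlap (11.1%, against 8.25% of all probe sets). It stood at 3.02, 2.94 and 2.93 in CDX populations and 2.92, 2.89 and 2.84 in Control populations, near the lowest value on the arrays (2.64). Its difference of 0.08 was 0.03 without the yolk-high arrays. The other probe sets of kl-2 differed by 0.07 and -0.01, and their population means overlapped.

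The median of the 9 Y-linked probe sets, relative to the autosomes, was -3.42, -3.40 and -3.46 in CDX populations and -3.47, -3.46 and -3.55 in Control populations. The populations did not overlap, but by less than 0.01, and the difference of 0.066 had an exact permutation p of 0.1 over populations, the smallest possible (0.467 adjusted over 7 arms), and 0.19 over arrays. The median of the single differences ran the other way, at -0.014, and was 0.026 without the yolk-high arrays.

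The Stellate system is a classic case of Y control, in which repeats on the Y silence the Stellate genes of the X in the male germline. The relatives of Stellate that carried probe sets did not differ beyond the spread between arrays. Ssl had a mean of 8.95 ± 0.14 in CDX males and 8.96 ± 0.13 in Control males, and CkIIbeta2 9.11 ± 0.13 in CDX males and 9.02 ± 0.17 in Control males (SD, n = 6 arrays each). In CkIIbeta2, CDX array 2-1 (8.87) and Control array 1-1 (8.67) lay below the others.

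None of the 7 dosage compensation genes had an unadjusted p under 0.05 (limma, 3.04% of all genes did). None had population means that did not overlap (8.05% of all genes did). The mean was higher in CDX males for mof, the acetyltransferase of the complex, which is itself on the X, and lower for the other 6. The median was -0.022. Without the yolk-high arrays 3 were higher and the median was -0.0003, and without Control population 3 it was 0.0007. The largest difference was that of msl-2, the subunit that restricts the complex to males, with 7.16, 7.11 and 7.25 in CDX populations and 7.22, 7.31 and 7.26 in Control populations (-0.09, 95% confidence interval -0.23 to 0.05). Its partners msl-1 and mle differed by -0.02 and -0.03. The adaptor Clamp stood at 9.36 ± 0.05 in CDX males and 9.38 ± 0.11 in Control males.

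The compound X of the DX mothers carries mutations in y and f, which their sons do not inherit. The yellow gene y had 3.37, 3.63 and 3.67 in CDX populations and 3.61, 3.71 and 3.66 in Control populations, a difference of -0.10 with an unadjusted p of 0.148 (limma). The 2 probe sets of f differed by 0.03 and 0.0025. No probe set could be matched to a gene of the mitochondrial genome, which passes through the mother.

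Among 26 genes of heterochromatin and position effect, 18 had a higher mean and 8 a lower one, with a median of 0.027, beside 53.6% higher and a median of 0.006 over all 11982 genes. None had an unadjusted p under 0.05, where 3.04% of all genes did, and 4 had population means that did not overlap (15.4%, against 8.05% of all genes). The median was 0.0028 without CDX population 1 and turned to -0.0061 without Control population 1. E(z), the histone methyltransferase of Polycomb repression, had 7.98, 7.92 and 7.93 in CDX populations and 7.85, 7.88 and 7.83 in Control populations, with all 6 CDX arrays (7.89 to 8.06) above the 6 Control arrays (7.80 to 7.89). The GAGA factor Trl stood at 8.85, 8.98 and 8.93 in CDX populations and 9.07, 9.03 and 9.02 in Control populations, a difference of -0.12 (standard error 0.06). Of 16 sex determination genes 8 were higher and 8 lower, with a median of -0.0019. Without the yolk-high arrays 5 were higher and the median was -0.025. Only gro, a corepressor, had an unadjusted p under 0.05 (3.04% of all genes did). It had 7.25, 7.20 and 7.29 in CDX populations and 7.79, 7.78 and 7.12 in Control populations, so that the difference of -0.32 (standard error 0.14) rested on Control populations 1 and 2.

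Among the enzymes of detoxification more genes had higher than lower means in CDX males, and none passed the correction. Cytochrome P450s, which oxidise hormones, lipids and foreign compounds, had 83 measured genes, 65 higher and 18 lower in CDX males, with a median difference of 0.060. The mean log2 level of the group was 8.25, 8.31 and 8.25 in CDX populations and 8.21, 8.20 and 8.16 in Control populations, which did not overlap. At an unadjusted p under 0.05 there were 7 genes, all with a higher mean (1.71% of all genes had a higher mean at that p, and 1.33% a lower one), and 8 higher and 2 lower genes had population means that did not overlap (4.43% of all genes were apart with a higher mean). With the yolk and eggshell mean as a covariate 68 were higher, with a median of 0.066. The median was 0.035 without CDX population 2 and 0.10 without CDX population 1.

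Cyp6a2, a P450 linked to insecticide resistance, had 10.60, 10.72 and 10.33 in CDX populations and 10.32, 10.31 and 10.09 in Control populations, a difference of 0.31 (standard error 0.12). Cyp9b2 had 10.75, 11.13 and 11.18 in CDX populations and 10.68, 10.52 and 10.81 in Control populations (0.35, standard error 0.14), with CDX population 1 below Control population 3. Cyp9f2 stood at 11.14, 11.42 and 11.10 in CDX populations and 11.04, 11.03 and 11.02 in Control populations, and Cyp4ad1 at 8.42, 8.36 and 8.35 against 8.15, 8.14 and 8.30 in Control populations. The P450 of cuticular hydrocarbon synthesis, Cyp4g1, was the brightest of the family, at 15.07 ± 0.02 in CDX males and 15.07 ± 0.01 in Control males (SD, n = 6 arrays each).

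UDP-glycosyltransferases, which act after the P450s, numbered 35 genes, with 23 higher, 12 lower and a median of 0.074. There were 5 higher genes and 1 lower gene at an unadjusted p under 0.05 (17.1%, against 3.04% of all genes), and the same numbers had population means that did not overlap (17.1%, against 8.05% of all genes). Ugt304A1 had 6.97, 7.27 and 7.07 in CDX populations and 6.63, 6.91 and 6.85 in Control populations, and Ugt303A1 had 6.62, 6.88 and 6.69 against 6.26, 6.47 and 6.54 in Control populations, both with a difference of 0.31. Ugt37E1 ran the other way (-0.17, standard error 0.08). The group's median was 0.027 without Control population 1, 0.035 without CDX population 2, 0.047 without CDX population 3 and 0.043 without the yolk-high arrays.

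Glutathione S-transferases, with 34 genes, had 21 higher and 13 lower, a median of 0.042, and none at an unadjusted p under 0.05. The median turned to -0.0017 without CDX population 2 and was 0.096 without CDX population 1. GstD1, the most abundant in many tissues, had 13.42, 13.65 and 13.49 in CDX populations and 13.61, 13.45 and 13.33 in Control populations, which overlapped. GstT4, X-linked, had 11.47, 11.66 and 11.51 in CDX populations and 11.44, 11.40 and 11.41 in Control populations.

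**Figure D5:**
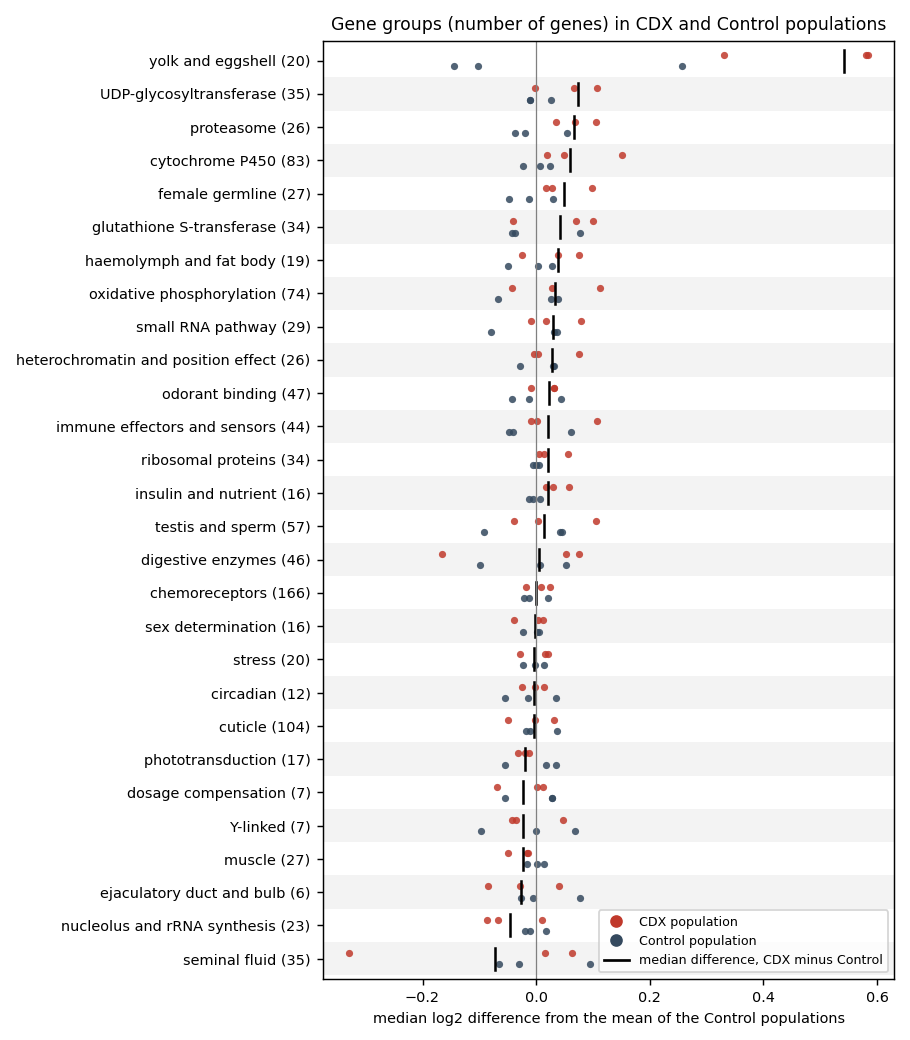
Median log2 difference from the mean of the Control populations (horizontal axis) over the genes of each group of 6 or more genes (rows, number of genes in brackets), for each CDX population, drawn above, and each Control population, with a bar at the median difference of the group's genes. Yolk and eggshell genes lie furthest to the right (bar at 0.54), seminal fluid genes furthest to the left (-0.072) with CDX population 2 at -0.33, and most other groups lie within 0.08 of 0.

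All 26 proteasome genes, whose products form the particle that degrades ubiquitin-tagged proteins, had a higher mean in CDX males. The differences were small, from 0.014 to 0.12 with a median of 0.067, and the members of 1 complex are not independent observations. There were 4 at an unadjusted p under 0.05 (limma), where 3.04% of all genes were. Population means did not overlap for 7 (26.9%, against 8.05% of all genes). The group's mean level was 11.11, 11.17 and 11.14 in CDX populations and 11.14, 11.04 and 11.05 in Control populations, so CDX population 1 lay below Control population 1. Prosbeta3, a subunit of the catalytic core, stood at 12.00, 12.03 and 12.06 in CDX populations and 11.98, 11.88 and 11.92 in Control populations. Rpn5, of the regulatory lid, had 10.82, 10.95 and 10.98 in CDX populations against 10.89, 10.75 and 10.77 in Control populations. Without the yolk-high arrays 25 of the 26 were higher, with a median of 0.053.

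Ribosomal proteins had 28 genes higher and 6 lower in CDX males, with a median of 0.021 and none at an unadjusted p under 0.05. RpL17 had 13.10, 13.11 and 13.06 in CDX populations and 13.06, 13.02 and 12.97 in Control populations, a difference of 0.07 (standard error 0.04). The germline paralogue RpS5b had 9.35, 9.24 and 9.15 in CDX populations and 8.97, 9.18 and 9.08 in Control populations. Factors of the nucleolus and of ribosomal RNA synthesis ran the other way, with 7 higher and 16 lower and a median of -0.046. The nucleolar gene vito had population means of 6.75, 6.86 and 6.94 in CDX males and 6.99, 7.04 and 7.05 in Control males, a difference of -0.18 (standard error 0.06). Oxidative phosphorylation genes, which make up the respiratory chain, had 58 of 74 higher with a median of 0.033 and none at an unadjusted p under 0.05. Without the yolk-high arrays 43 were higher and the median was 0.005, without CDX population 2 it turned to -0.0075, and without Control population 3 it was 0.0017.

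In the male reproductive tract, more seminal fluid genes had lower than higher means in CDX males, with 8 higher and 27 lower of 35 and a median of -0.072. The group's mean level was 11.92, 11.53 and 11.86 in CDX populations and 11.80, 11.77 and 11.95 in Control populations, so that CDX population 2 alone lay below the Control range. Without CDX population 2 the median turned to 0.048, and without Control population 3 it was -0.020, so the lower means rested on single populations. No seminal fluid gene had population means that did not overlap (8.05% of all genes did), and 2 had an unadjusted p under 0.05 (3.04% of all genes). Sfp38D stood at 9.18, 8.72 and 9.45 in CDX populations and 9.50, 9.30 and 9.76 in Control populations (-0.40, standard error 0.15). Acp95EF stood at 9.70, 9.40 and 9.41 in CDX populations and 9.76, 9.66 and 9.58 in Control populations. The sex peptide gene SP, whose product changes the behaviour of mated females, had means of 13.93 ± 0.13 in CDX males and 13.97 ± 0.06 in Control males, and Acp26Aa, which stimulates egg laying, 13.16 ± 0.23 and 13.25 ± 0.14 in the same order (SD, n = 6 arrays each).

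Among the 6 genes of the ejaculatory duct and bulb 3 were higher and 3 lower. Gld, the glucose dehydrogenase stored in the duct, had 11.63, 11.10 and 11.56 in CDX populations and 11.70, 11.60 and 11.75 in Control populations (-0.25, standard error 0.12), and CDX population 2 was again the lowest. Testis and sperm genes had 38 higher and 19 lower of 57, a median of 0.014, and none at an unadjusted p under 0.05. The median turned to -0.028 without CDX population 1 and to -0.027 without Control population 1. The meiotic arrest gene topi, a transcription factor of spermatocytes, had the smallest p of the group (0.072, limma), with 7.62, 7.46 and 7.35 in CDX populations and 7.12, 7.41 and 7.30 in Control populations. The testis tubulin betaTub85D stood at 12.80 ± 0.05 in CDX males and 12.72 ± 0.10 in Control males.

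The yolk and eggshell genes had 19 of 20 with a higher mean in CDX males, a median difference of 0.54, and 12 with population means that did not overlap (8.05% of all genes), although none had an unadjusted p under 0.05. In whole flies more cells of a type and more RNA per cell cannot be told apart. Of the maternal transcripts that only eggs and ovaries should hold, bcd stood at 4.45 ± 0.15 in CDX males and 4.49 ± 0.09 in Control males, and osk at 4.18 ± 0.55 and 3.75 ± 0.45 in the same order (SD, n = 6 arrays each). Yp1, a yolk protein, had a lowest, median and highest array value of 5.43, 7.44 and 8.84 in CDX males and 4.82, 5.53 and 8.62 in Control males. The chorion gene Cp36 ran from 5.44 through 7.24 to 8.88 in CDX arrays, against 5.12, 5.49 and 7.88 in Control arrays. The spread within a treatment was wider than the difference between them. Without the yolk-high arrays the group's median was 0.16 with 18 higher, and Cp36 differed by 0.63. Those arrays were picked by the mean of these same genes, so a smaller difference without them was set in part by that choice. Female germline genes, many of which are also active in testis, had 19 higher and 8 lower of 27 and a median of 0.049, which was -0.0008 with the yolk and eggshell mean as a covariate.

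Immune genes had 28 higher and 16 lower of 44, with a median of 0.021, 3 higher genes at an unadjusted p under 0.05 (3.04% of all genes), and 5 higher and 2 lower genes with population means that did not overlap (8.05% of all genes). The median turned to -0.0022 without CDX population 2 and to -0.0052 without Control population 3. Rel, the NF-kappaB factor of the Imd pathway, had 9.40, 9.62 and 9.49 in CDX populations and 9.32, 9.24 and 9.27 in Control populations. All 6 of its CDX arrays (9.38 to 9.73) lay above the Control arrays (9.19 to 9.33), and the difference was 0.23 (standard error 0.06, unadjusted p = 0.00106 from limma). The peptidoglycan recognition protein PGRP-LA had 8.46, 8.58 and 8.45 in CDX populations and 8.40, 8.30 and 8.37 in Control populations. SPE, the protease that activates the ligand of the Toll pathway, had 10.27, 10.33 and 10.02 in CDX populations and 10.05, 9.71 and 10.02 in Control populations (0.28, standard error 0.12).

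Stress genes split evenly, with 10 higher and 10 lower of 20, but 8 of them had population means that did not overlap (40%, against 8.05% of all genes), 2 higher and 6 lower. Only 1 higher and 1 lower gene had an unadjusted p under 0.05 (limma, 3.04% of all genes did). The median of -0.0035 ran from -0.017 to 0.026 with a population left out. The small heat shock gene Hsp26 had 10.46, 10.27 and 10.29 in CDX populations and 10.13, 10.19 and 10.19 in Control populations, while the larger chaperone Hsp110 had 9.88, 9.77 and 9.83 against 10.02, 9.89 and 9.92 in Control populations. Their differences were 0.17 and -0.11. The abundant chaperone Hsc70-4, 1 of the 6 lower genes counted as not overlapping, differed by -0.02, with no CDX array below every Control array.

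Digestive enzymes had 25 higher and 21 lower of 46. The proteases Jon25Bi and Jon25Bii, which lie in 1 gene cluster and may share probe signal, differed by -0.32 and -0.33 (standard errors 0.13 and 0.14). Jon25Bi had 13.18, 13.05 and 13.46 in CDX populations and 13.61, 13.72 and 13.31 in Control populations, where the third CDX population lay above the third Control population. Amyrel, an amylase relative, had 8.51, 7.46 and 8.37 in CDX populations and 7.38, 7.29 and 7.92 in Control populations (0.59, standard error 0.27).

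In the remaining groups the medians were near 0. Muscle genes had 10 higher and 17 lower of 27 and a median of -0.023, and cuticle genes 49 higher and 55 lower of 104. Chemoreceptors, most of them dim in whole flies, had 82 higher and 84 lower of 166. Within them 1 higher gene and 4 lower genes had an unadjusted p under 0.05 (limma, 3.04% of all genes did). Population means did not overlap for 9 higher and 5 lower genes (8.43%, against 8.05% of all genes). Or65a and Or65c, neighbouring odorant receptors, were both lower, by -0.21 each. Ir76a, with the largest difference of the group, was higher by 0.40 (standard error 0.16). Or65a, which responds to a male pheromone, stood at 3.97, 4.01 and 4.15 in CDX populations and 4.31, 4.20 and 4.24 in Control populations, near the low end of the signal. Odorant binding proteins had 29 higher and 18 lower of 47, and Obp56h stood at 7.29, 7.95 and 7.67 in CDX populations against 7.55, 6.81 and 7.15 in Control populations, which overlapped. Phototransduction genes had 6 higher and 11 lower, haemolymph and fat body genes 14 higher and 5 lower, and insulin and nutrient genes 11 higher and 5 lower. Their medians were -0.019, 0.038 and 0.020, with 1 gene at an unadjusted p under 0.05 among the 3 groups (3.04% of all genes). Small RNA pathway genes had 18 higher and 11 lower, with none at that p. Of the 12 circadian genes, cyc, a partner in the activating pair of the clock, had 8.23, 8.25 and 8.14 in CDX populations and 8.10, 8.09 and 7.99 in Control populations, a difference of 0.15 (standard error 0.05). The clock kinase gene dco had 9.42, 9.21 and 9.24 in CDX populations and 9.44, 9.39 and 9.41 in Control populations.

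MLX males also carry their father's X, from an evolved population, and like CDX males they had a DX mother and her Y. Their values for some of the leading genes were as follows, with no test made since the Control arrays are shared. CG34251 had means of 6.74 ± 0.41 in CDX, 7.08 ± 0.35 in MLX and 5.77 ± 0.48 in Control males (SD, n = 6 arrays each). CG13947 stood at 11.64 ± 0.35 in CDX, 11.59 ± 0.31 in MLX and 12.29 ± 0.17 in Control males. CG4998 stood at 6.25 ± 0.34 in CDX, 5.66 ± 0.37 in MLX and 5.58 ± 0.47 in Control males. MLX males thus lay near CDX males for the first pair of genes and near Control males for CG4998. The larval storage protein Lsp2, at 10.93 ± 0.38 in CDX, 9.66 ± 0.65 in MLX and 11.39 ± 0.73 in Control males, had a difference between CDX and Control of -0.46 (standard error 0.32).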

How the data were processed

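RNA of whole adult males was measured on 18 Affymetrix GeneChip Drosophila Genome 2.0 arrays. The deposited log2 values were made by the authors with RMA in the package affy (BioConductor 2.4), over all 18 arrays together, and hold no filter. RMA draws the arrays to 1 distribution, so a shift of all transcripts would not be seen. Array number, not depth, limits the precision. Of 18952 probe sets, 183 Affymetrix controls were left out. Genes and arms came from the platform annotation and RefSeq (Release 6 plus ISO1 MT), with 13550 probe sets placed on an arm, and 402 with several genes and 4720 with none left unnamed.

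limma 3.58.1 (R 4.3.3) was fitted to 18 arrays with treatment fixed and 9 populations as a random block (duplicateCorrelation, within-population correlation 0.192), with Benjamini-Hochberg adjustment of the 18769 p-values and calls at an adjusted p under 0.05. The fit was tested on simulated data. Named genes were up to 15 a side, by size, with 1 gene, an unadjusted p under 0.01 and population means that did not overlap. All measured members of the Y-linked, Stellate, dosage compensation and DX marker lists are named or counted, and from the other lists the brightest and those of smallest p, with further members chosen after their values were seen. There were 31 lists, and each gene was represented by its brightest probe set. Members and lists were chosen with earlier results of these data known, and some symbols were removed from lists after the files were read. Arm values were compared in an exact permutation test (two-sided, 20 arrangements of population means, 924 of arrays). The version over arrays ignores that arrays are nested in populations. Tables were made in pandas 2.3.3 and numpy 2.4.6 and plots in matplotlib 3.10.9 (Python 3.11.15). Alternatives were other blocks, centring, filters, 1 probe set per gene, covariates, and each array or population left out.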

Additional observations from a re-analysis of the deposited data

Results flagged for a closer look

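Of 328 groups of 6 arrays examined, 33 held an array that stood apart, its gap to the nearest array being a large share of the group's range. Chance alone flags about 1 group in 20, and genes that share an array are not independent.

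Control array 2-1 was the high one for 13 genes, all of yolk, eggshell or egg transcripts, and for the mean of the 20 yolk and eggshell genes. It stood at 6.45 for that mean, and at 8.62 for Yp1, 8.62 for Yp2 and 8.79 for Yp3. The vitelline membrane genes were at 7.84 (Vm26Aa), 4.10 (Vm32E) and 7.02 (Vm34Ca) on that array. The chorion genes were at 8.78 (Cp15), 5.92 (Cp16), 7.13 (Cp18), 7.01 (Cp19), 7.88 (Cp36) and 7.25 (Cp38), and osk was at 4.64. CDX arrays did not stand apart for these genes, since 3 of the 6 were high.

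Control array 1-1 was the one apart for 7 genes. It was high for Tet, at 6.47, which is 1 of the named genes on the lower side of CDX. It was low for CkIIbeta2 (8.67), msl-3 (6.85), Pof (12.01), topi (6.84), Tif-IA (9.80) and mino (10.33). Control array 1-2 was high for Prosbeta7 (12.26) and low for cwo (10.45) and mav (9.84).

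Among CDX arrays, 2-1 was low for CkIIbeta2 (8.87) and mav (9.75) and high for RpL41 (14.68). Array 2-2 was high for GstT4 (11.75) and PGRP-LA (8.67). Array 3-2 was low for CG3635 (6.10), a named gene with a higher mean in CDX, and high for Lsd-2 (11.05). Array 1-2 was high for E(z) (8.06) and array 3-1 low for Cpr65Au (12.22).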

How the results depend on the processing

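No transcript passed an adjusted p of 0.05 under any of the 30 other settings (limma), and the smallest adjusted p ran from 0.297 to 0.999983. The number at an unadjusted p under 0.05, 560 as reported, was 896 with arrays taken as independent, 270 among 9384 brighter probe sets and 340 with 1 probe set for each of 11982 genes, the last 2 with fewer features tested. It ranged from 375 to 863 with a population or array left out, the highest without CDX population 1, and from 512 to 731 under the rest. Centring each array on its median shifted all differences by about -0.007 and gave 207 higher and 305 lower at that p.

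The X minus autosome difference of 0.0076 turned to -0.0017 among brighter probe sets and to -0.0021 with 1 probe set per gene, both with an exact permutation p of 0.9 over populations, and the cause was not tested. It ran from 0.0002 to 0.015 with a population left out. The chromosome 4 difference kept its sign in 13 other settings, from -0.10 to -0.037. Its exact permutation p over populations, 0.2 as reported, was 0.7 with 1 probe set per gene and 0.4 among brighter probe sets. With a population left out it was 0.2 or 0.5. With 1 population left out at a time, the median difference changed sign for 20 of 30 gene groups and kept it for 10, among them the cytochrome P450, UDP-glycosyltransferase, proteasome, ribosomal protein, nucleolus, and yolk and eggshell genes.

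The CDX and Control populations share numbers 1 to 3, and the labels do not say whether these pair them. Deviations from the treatment means correlated by -0.054, 0.081 and 0.18 between same-numbered populations. With no differently numbered populations beside them, these values cannot decide the question. The populations were taken as unpaired, with pairing as an alternative. With the population number as a replicate block 0 transcripts passed and 731 had an unadjusted p under 0.05. With that pairing, where 3 pairs allow an exact permutation p no smaller than 0.25, the X difference of 0.0076 had a p of 0.75 and the chromosome 4 difference of -0.060, lower in CDX males in 3 of 3 pairs, one of 0.25. Without pairing an exact p cannot fall below 0.1, and the median standard error of 0.074 leaves small differences undetectable.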
